A study of Penicillium oxalicum with 18 samples.

Results

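The genes described here are 162 of 9176 gene models of the filamentous fungus Penicillium oxalicum. In glucose medium they stood higher in a vib1 deletion strain (Δvib1) than in its wild type. In the other media measured their strain difference stayed within set limits. They were chosen by their measured values. For each medium the strain difference was taken as log2(mean of the 3 Δvib1 libraries + 1) minus log2(mean of the 3 wild-type libraries + 1), with means in FPKM, a level scaled to gene length and library size. A member had a difference of at least 1.5 in glucose, differences between −1 and 1 in both other media, and averaged at least 10 FPKM in Δvib1 in glucose. One further gene that met these values, PDE_00579, was left out by the rule itself. Because the strain differences chose the members, they are given as a description and carry no test.

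Δvib1, which carries a deletion of vib1, was set against strain 114-2, the wild type. Mycelia of both were first grown in glucose medium (2%, 24 h, 30 °C) and then held for 24 h in medium with 2% glucose, 2% N-acetylglucosamine (GlcNAc), or 1% bran plus 1% microcrystalline cellulose. Each strain had 3 libraries in each medium, 18 in all. No source used here says whether Δvib1 was 1 clone or whether the libraries came from separate cultures, so spreads and p-values cover differences between these libraries, which may be technical.

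Vib1 is a fungal transcription factor. In Neurospora crassa its counterpart VIB-1 is known for programmed cell death after the fusion of incompatible strains and for the response to cellulose, which involves glucose signalling. In many filamentous fungi glucose represses genes for the use of other carbon sources, a control known as carbon catabolite repression, and plant polysaccharides such as cellulose induce secreted enzymes. The table pairs no ID with a gene name, and 0 of its 9176 IDs matched the 9964 rows of the RefSeq gene table of another strain, so members appear under their locus tags and no function is given for any of them.

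Library totals were 915811 to 1119470 FPKM, with 713 to 860 gene models at 0. Read depth is unknown, and an exact 0 may be a failed estimate, so a gene at 0 is only said to be listed at 0. No ID is known here to be vib1, so the strain labels have no check from the deleted gene. Over all gene models the median strain difference in glucose was 0.15 log2 units (Δvib1 minus wild type), and with libraries rescaled by median ratios 131 genes met the rule, 113 of them members.

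In glucose the members had a median of 54.3, 51.2 and 45.8 FPKM in the 3 Δvib1 libraries, against 9.16, 9.24 and 9.57 FPKM in the 3 wild-type libraries. Their summed FPKM made up 3.42%, 3.66% and 3.68% of all FPKM in the Δvib1 libraries and 0.715%, 0.778% and 0.735% in the wild-type libraries. In glucose the members were a larger part of all FPKM in each Δvib1 library than in any wild-type library, which the rule largely fixed. The median strain difference in glucose was 2.11 log2 units, with 69 members between 1.5 and 2, 59 between 2 and 3, 18 between 3 and 4, and 16 at 4 or more. All 3 Δvib1 libraries lay above all 3 wild-type libraries for 160 members, where 40.4% of all gene models did so; since the rule used this comparison, nothing is read from the count.

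The 2 members whose libraries overlapped in glucose each rested on few libraries. PDE_06456 stood at 0, 0 and 38.2 FPKM in the Δvib1 libraries and was listed at 0 in all 15 others. PDE_07531 stood at 40.8, 5.23 and 0 FPKM in the Δvib1 libraries and was likewise listed at 0 elsewhere. Both entered through a mean that 1 library carried, and neither passed the filter of 1 FPKM in 3 libraries used for the tests, which 160 members passed.

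**Figure D1:**
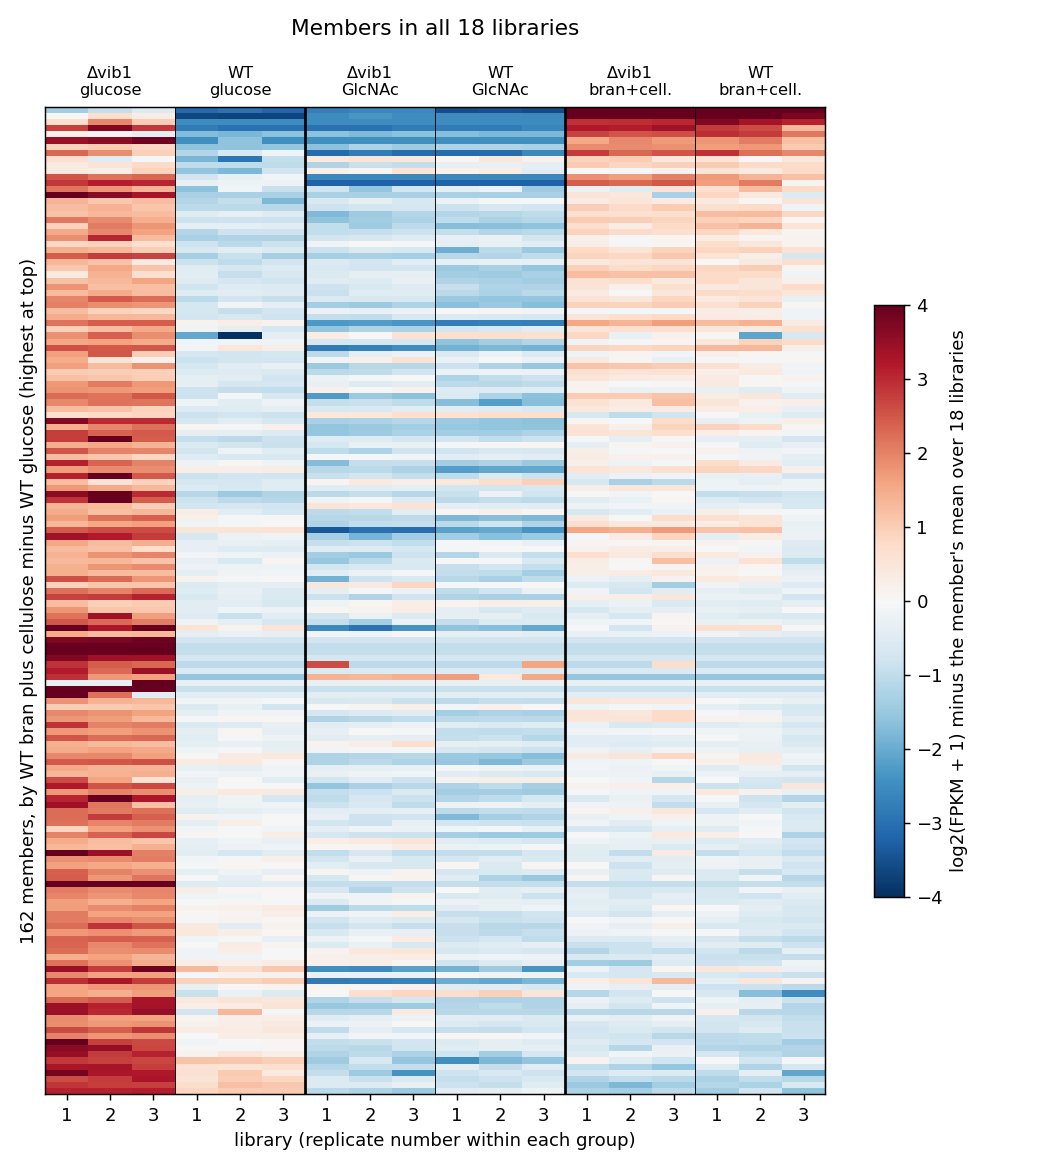
Each row is one of the 162 members and each column one of the 18 libraries, ordered by medium with Δvib1 left of wild type (WT). Colour gives log2(FPKM + 1) minus the member's mean over all libraries, clipped at −4 and 4, and rows are ordered by the wild-type difference between bran plus cellulose and glucose; the Δvib1 libraries in glucose are the highest group for 151 members, while several rows at the top are highest on bran plus cellulose.

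The members with the largest strain difference in glucose were at or near 0 in the wild type there. PDE_03928 had 50.8, 100.5 and 55.3 FPKM in Δvib1 in glucose, against 0.14, 0 and 0 FPKM in wild type. On bran plus cellulose the same gene had 72.7 ± 5.62 FPKM in Δvib1 and 39.6 ± 18.6 FPKM in wild type (SD, n = 3 each). PDE_01953 had 58.3, 65.5 and 80.2 FPKM in Δvib1 in glucose, against 0, 0.8 and 0 FPKM in wild type, and stood at 17.0 ± 2.63 and 17.0 ± 5.22 FPKM in Δvib1 and in wild type on bran plus cellulose (SD, n = 3 each). Both genes were at or near 0 in GlcNAc in both strains: PDE_01953 was listed at 0 in all 6 GlcNAc libraries, and PDE_03928 reached at most 0.28 FPKM there.

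A second kind of member was measured in Δvib1 in glucose and listed at 0 everywhere else. PDE_01959 stood at 53.6, 71.5 and 57.4 FPKM in the 3 Δvib1 libraries in glucose and at 0 in the 15 others. PDE_02559 stood at 64.9, 47.6 and 51.6 FPKM in the same 3 libraries and at 0 in the 15 others. In all, 8 members were listed at 0 in all 15 other libraries, among them PDE_06456 and PDE_07531 described above. PDE_07103, PDE_01697, PDE_02757 and PDE_03249 complete the 8, with means of 37.5, 22.8, 17.2 and 11.3 FPKM in Δvib1 in glucose. Counting 3 further members, PDE_00482, PDE_01278 and PDE_03922, 11 had means under 1 FPKM in each of the 5 other groups. PDE_03922 stood at 75.1, 20.9 and 6.91 FPKM in the Δvib1 libraries, a wide spread. These 3 and the 4 before them were named after their values were seen.

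The most abundant members were also well expressed in the wild type. PDE_09377 had 13692, 16362 and 16328 FPKM in Δvib1 in glucose, against 3381, 3649 and 3338 FPKM in wild type, a ratio of means of 4.47. Without it the members still summed to 18575, 17579 and 17400 FPKM in the Δvib1 libraries, against 3912, 4198 and 4227 FPKM in the wild-type libraries. In GlcNAc it stood at 624 ± 21.7 FPKM in Δvib1 and 456 ± 12.1 FPKM in wild type, and on bran plus cellulose at 8768 ± 934 and 6423 ± 2295 FPKM in Δvib1 and in wild type (SD, n = 3 each). Its order of media was therefore the same in both strains except for the place of glucose, which was the highest medium for Δvib1 and the middle one for wild type.

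PDE_05548 had 956, 772 and 899 FPKM in Δvib1 in glucose, against 105, 110 and 130 FPKM in wild type, a ratio of means of 7.61. It stood below 80 FPKM in every library of the other media. PDE_05549, which has the next tag number, is also a member, with means of 134.6 FPKM in Δvib1 and 39.0 FPKM in wild type in glucose. PDE_05889 had 750, 845 and 843 FPKM in Δvib1 in glucose, against 192, 196 and 207 FPKM in wild type, a ratio of means of 4.11. PDE_01215 had 514, 709 and 873 FPKM in Δvib1, against 200, 179 and 215 FPKM in wild type (ratio 3.53), and PDE_01852 had 775, 902 and 875 FPKM in Δvib1, against 288, 292 and 294 FPKM in wild type (ratio 2.92). These last 3 genes and PDE_09377 were higher on bran plus cellulose than in GlcNAc in both strains by the test given below.

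**Figure D2:**
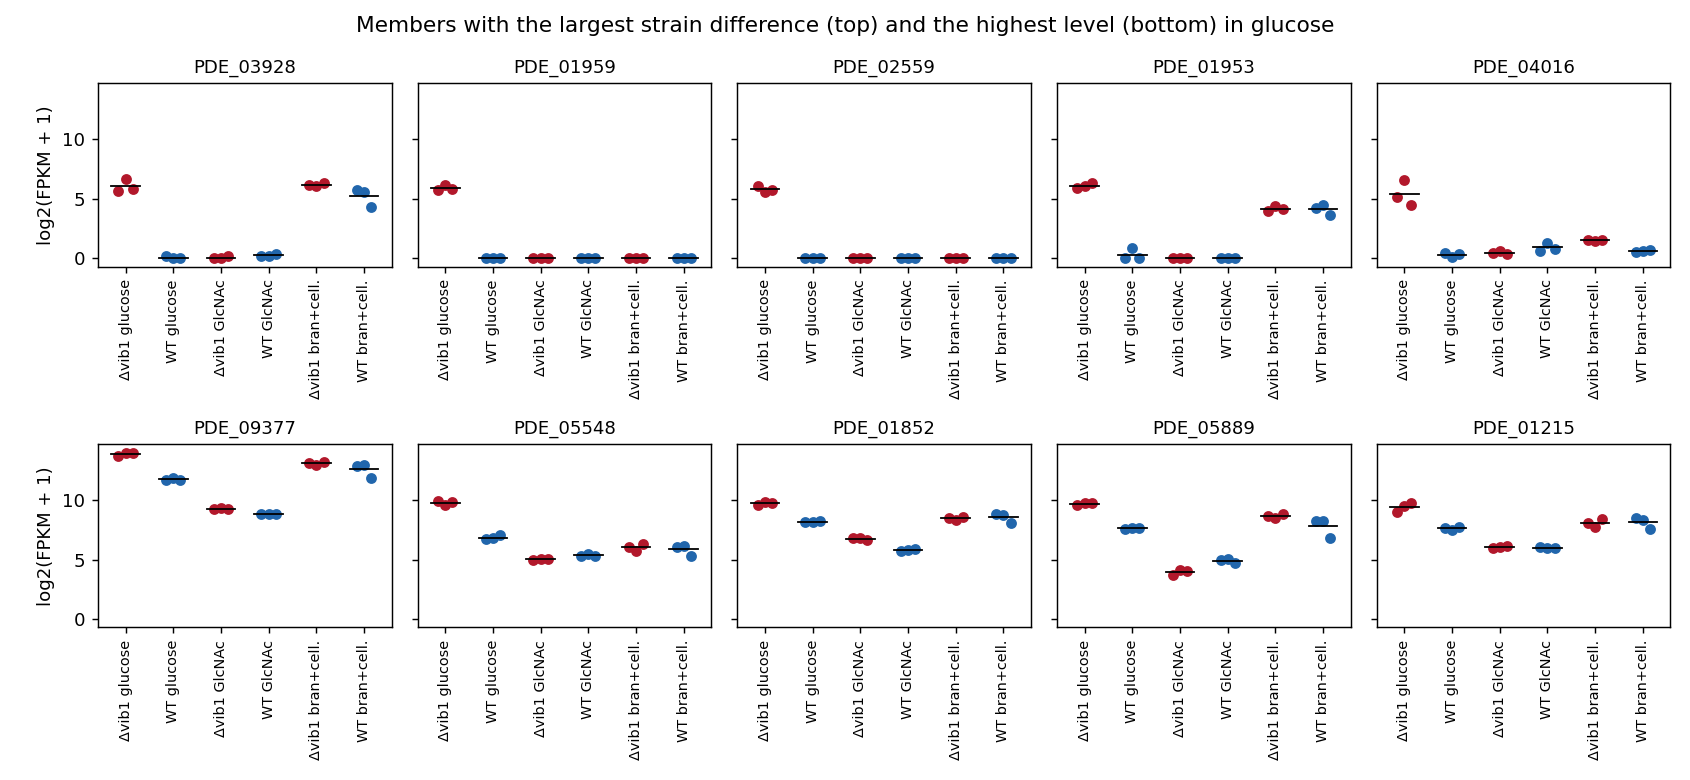
Points give log2(FPKM + 1) in each library and lines the mean of the 3, with Δvib1 libraries in red and wild-type libraries in blue, for the 5 members with the largest strain difference in glucose (top row) and the 5 with the highest mean in Δvib1 in glucose (bottom row). PDE_01959 and PDE_02559 are at 0 in all groups but one, PDE_03928 and PDE_01953 are also present on bran plus cellulose, and the 5 abundant members are present in all groups.

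By level, 29 members had a mean under 20 FPKM in Δvib1 in glucose, 82 had 20 to 100 FPKM, 50 had 100 to 1000 FPKM and 1, PDE_09377, had more. In the wild type in glucose 78 of the 162 reached a mean of 10 FPKM. The members' median coefficient of variation between replicates was 15.6% in the Δvib1 libraries in glucose. All gene models of at least 10 FPKM there, members included, had 10.3%. The rule used the mean of these libraries, which 1 high library can raise, so nothing is read from the wider spread. Of the 3 Δvib1 libraries in glucose, replicate 1 held the highest value of 80 members, replicate 2 of 44 and replicate 3 of 38.

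Genes on either side of the limits of the rule had nearly the same values. Just inside the limit in glucose, PDE_00647, PDE_06377 and PDE_07867 had strain differences of 1.5, 1.51 and 1.51 log2 units. Just outside, PDE_05686, PDE_00488 and PDE_05818 had 1.49 log2 units each. A further 219 genes had a difference of 1 to 1.5 and met the other parts of the rule. At the limit on level, PDE_09535 and PDE_02930 were inside with means of 10.6 and 11.04 FPKM, and PDE_04992 and PDE_09123 outside with 9.54 and 9.21 FPKM, in Δvib1 in glucose.

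The restriction to glucose was one pattern among several. Of 449 gene models with a glucose difference of at least 1.5 and a mean of at least 10 FPKM in Δvib1, 201 were also higher by at least 1 in GlcNAc, 51 were lower by at least 1 there, 52 were higher by at least 1 on bran plus cellulose and 21 lower, with 39 genes outside the limits in both media. The members' strain differences in GlcNAc had a median of 0.07 log2 units and on bran plus cellulose of 0.14. Inside those limits differences remained, from −0.95 to 0.996 log2 units in GlcNAc and from −0.93 to 0.96 on bran plus cellulose. For low genes the ratio could be larger, as 1 was added to each mean. PDE_04028, for example, averaged 1.38 FPKM in Δvib1 and 0.38 FPKM in wild type in GlcNAc. All 3 Δvib1 libraries lay above all 3 wild-type libraries for 56 members in GlcNAc (45.1% of all gene models) and below them for 33 (31.3% of all gene models). On bran plus cellulose 43 members lay wholly above (18.6% of all gene models) and 11 wholly below (18.2% of all gene models). These comparisons were used by the rule and nothing is read from the counts.

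The same strain difference was read in libraries that had not chosen the genes. These were replicates of the same strains and media, which may be technical, so the values describe repeatability between libraries only. They are no independent support for the difference that chose the members. With replicates 1, 2 and 3 left out, 128, 145 and 145 of the chosen genes were members. When the rule was applied to replicates 2 and 3 of every group it chose 151 genes, and in replicate 1 these had a median strain difference of 2.10 log2 units in glucose, with 118 of 151 (78.1%) at 1.5 or more. Chosen on replicates 1 and 3, 163 genes had a median of 1.97 in replicate 2, with 131 (80.4%) at 1.5 or more. Chosen on replicates 1 and 2, 184 genes had a median of 1.87 in replicate 3, with 130 (70.7%) at 1.5 or more. Over all 8455 genes tested, 7.94%, 7.002% and 6.26% reached 1.5 in replicates 1, 2 and 3. At least 91.4% of the chosen genes kept a difference of 1 or more in the left-out replicate, and in replicate 3 the lowest was −3.78. In GlcNAc 93.4%, 94.5% and 83.7% of the chosen genes lay between −1 and 1 in left-out replicates 1, 2 and 3, against 63.8%, 63.3% and 62.4% of all genes tested. On bran plus cellulose 96.7%, 94.5% and 82.1% of the chosen genes did, against 91.8%, 91.8% and 87.8% of all genes tested. The chosen genes also had to reach 10 FPKM in Δvib1 in glucose. Among genes with that level the shares on bran plus cellulose were 95.54%, 95.01% and 91.004%. In GlcNAc they were 66.5%, 66.3% and 65.1%. On bran plus cellulose the chosen genes were thus slightly above this closer background in replicate 1. They were slightly below it in replicate 2 and further below it in replicate 3.

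Against their own strain's other media, most members were highest in glucose when vib1 was absent. Δvib1 in glucose held the highest of the 6 group means for 151 members, which includes the part of the pattern the rule fixed, while 26.5% of all 6339 gene models with at least 10 FPKM in that group were highest there. It exceeded every other group mean by at least 1 log2 unit in 109 members, a count for which no share over all gene models was taken. Within Δvib1, 150 members were 1 log2 unit or more higher in glucose than in GlcNAc (16.7% of the 6339 gene models) and 0 as much lower (8.74% of the 6339). Set against bran plus cellulose, 124 members were as much higher in glucose (14.1% of the 6339) and 4 as much lower (7.0% of the 6339). The rule used the Δvib1 levels in glucose, which partly fix these counts, and nothing is read from them.

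In the wild type, most members, like most genes tested, were not much higher in either other medium than in glucose. The share was smaller among members than among all genes tested. The wild-type glucose libraries entered the rule, so the following is a description. In 124 of the 162 members wild type had neither in GlcNAc nor on bran plus cellulose a level 1 log2 unit above that in glucose. In 28 members it was higher by that much on bran plus cellulose only, in 6 in GlcNAc only, and in 4 in both. In that order these were 76.5%, 17.3%, 3.70% and 2.47% of the members, against 86.1%, 5.90%, 6.52% and 1.45% of all genes tested. The median wild-type difference was −0.46 log2 units for GlcNAc minus glucose (0.06 over all genes tested) and 0.09 for bran plus cellulose minus glucose (0.14 over all genes tested). In wild type 41 members stood 1 log2 unit or more lower in GlcNAc than in glucose, 25.3% of the members and 10.1% of all genes tested.

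The 11 members in which Δvib1 in glucose was not the highest group all peaked on bran plus cellulose, 8 of them in Δvib1 and 3 in wild type. PDE_00607 had 135, 212 and 164 FPKM in Δvib1 in glucose, against 9.73, 9.40 and 9.56 FPKM in wild type, a ratio of means of 17.8. On bran plus cellulose it stood at 2670 ± 80.4 FPKM in Δvib1 and 2246 ± 369 FPKM in wild type (SD, n = 3 each). The level reached in glucose without vib1 was thus far above wild type in glucose and far below either strain on the polysaccharides. PDE_07945 had 25.2, 34.2 and 46.0 FPKM in Δvib1 in glucose, against 6.99, 7.84 and 6.55 FPKM in wild type, and on bran plus cellulose it stood at 3166 ± 118 FPKM in Δvib1 and 1802 ± 361 FPKM in wild type (SD, n = 3 each).

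The comparison of bran plus cellulose with GlcNAc uses no glucose library and no strain difference, and it was the one comparison of members that the rule left free, apart from holding the strains within 1 log2 unit of each other in each medium. It was tested with limma on log2(FPKM + 1) over 8455 genes, and a gene was called at a Benjamini-Hochberg adjusted p under 0.05 and 1 log2 unit or more. In Δvib1 58 of the 160 members tested were called higher on bran plus cellulose (36.25%), where 13.4% of all genes tested were, and 8 were called lower, where 12.5% of all genes tested were. In wild type 58 members were called higher (36.25%), where 13.3% of all genes tested were, and 2 were called lower, where 7.89% of all genes tested were. All genes tested include genes under 10 FPKM in Δvib1 in glucose and genes outside the strain limits. No share over genes matched to the members in level and strain difference was taken. Among the 160, 7 members were listed at 0 in all 12 libraries of these media and could not be called, as were 13 of all 8455 genes. These 7 members had passed the filter through Δvib1 in glucose alone. Without genes at 0 in all 12 libraries the shares called higher were 37.9% of 153 members and 13.4% of 8442 genes in Δvib1, and 37.9% and 13.3% in wild type. PDE_00482, PDE_03922 and PDE_04024 also passed only through Δvib1 in glucose, but were not at 0 in all 12 libraries and stay in the 153. The median difference over the 160 members was 0.58 log2 units in Δvib1 and 0.44 in wild type, against −0.15 and 0.04 over all genes tested.

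Of the 160 members tested, 46 were called higher in both strains and 2 lower in both. Over all genes tested, 4.55% were called higher in both and 1.40% lower in both. The rule holds the strains within 1 log2 unit of each other in both media for every member. Agreement between the strains is therefore partly fixed by the choice, and nothing is read from it. With a pseudocount of 5, which counts low genes less, 43 members were called higher in Δvib1 and 36 in wild type, with 872 and 782 of all genes tested. Among all genes tested, Δvib1's split was 1129 higher and 1053 lower as deposited, and 1331 higher and 768 lower after median-ratio rescaling, which moved the median gene by 0.15 log2 units; the members' split was then 66 higher and 6 lower. Replicate 3 of wild type on bran plus cellulose held the lowest of the 3 values for 76.8% of the 95 members with at least 10 FPKM in that group (54.9% of all such gene models), and its part in the result was measured by leaving it out, which gave 59 members called higher and 3 lower in wild type.

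PDE_07945 showed the largest medium difference of the members on the log2(FPKM + 1) scale; with a pseudocount of 0.1, PDE_04859, described last, exceeded it (8.77 against 8.28 log2 units in Δvib1, 9.18 against 8.47 in wild type), since a gene listed at 0 takes its difference from the pseudocount. It stood at 3203, 3034 and 3261 FPKM on bran plus cellulose in Δvib1, and at 9.42, 10.4 and 10.5 FPKM in its GlcNAc libraries, a shift of 8.16 ± 0.165 log2 units (SE; limma adjusted p = 1.47e-14). In wild type it stood at 1683, 1515 and 2207 FPKM on bran plus cellulose, and at 4.90, 5.10 and 4.72 FPKM with GlcNAc (8.24 ± 0.165, limma adjusted p = 7.89e-15). PDE_00607, at 2670 ± 80.4 FPKM on bran plus cellulose and 23.7 ± 1.95 FPKM in GlcNAc in Δvib1 (SD, n = 3 each), followed at 6.76 ± 0.136 log2 units (SE; limma adjusted p = 1.47e-14), and in wild type with 6.59 ± 0.136 (limma adjusted p = 9.29e-15). Both were thus called in both strains. PDE_04859 was listed at 0 in all 6 GlcNAc libraries and stood at 42.0, 43.2 and 45.3 FPKM on bran plus cellulose in Δvib1 and at 72.8, 56.4 and 47.2 FPKM in wild type (limma adjusted p = 3.77e-11 and 1.69e-11 for Δvib1 and for wild type).

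In the other direction PDE_06054 was listed at 0 in all 6 libraries on bran plus cellulose. In GlcNAc it stood at 6.72, 6.38 and 7 FPKM in Δvib1 and at 8.48, 2.84 and 7.56 FPKM in wild type (limma adjusted p = 1.04e-06 and 2.80e-06 for Δvib1 and for wild type). PDE_08138 averaged 2.82 ± 1.58 FPKM on bran plus cellulose and 7.26 ± 2.35 FPKM in GlcNAc in Δvib1 (SD, n = 3 each; log2 −1.15 ± 0.384, SE, limma adjusted p = 0.0151), a call that was lost without replicate 1 on bran plus cellulose or replicate 3 in GlcNAc (limma adjusted p of 0.0746 and 0.0620, in a range of 0.00399 to 0.134 over all alternatives). In wild type it averaged 1.09 ± 1.31 FPKM on bran plus cellulose and 8.27 ± 1.53 FPKM in GlcNAc (−2.33 ± 0.384, limma adjusted p = 9.79e-05). These were the 2 members called lower in wild type.

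**Figure D3:**
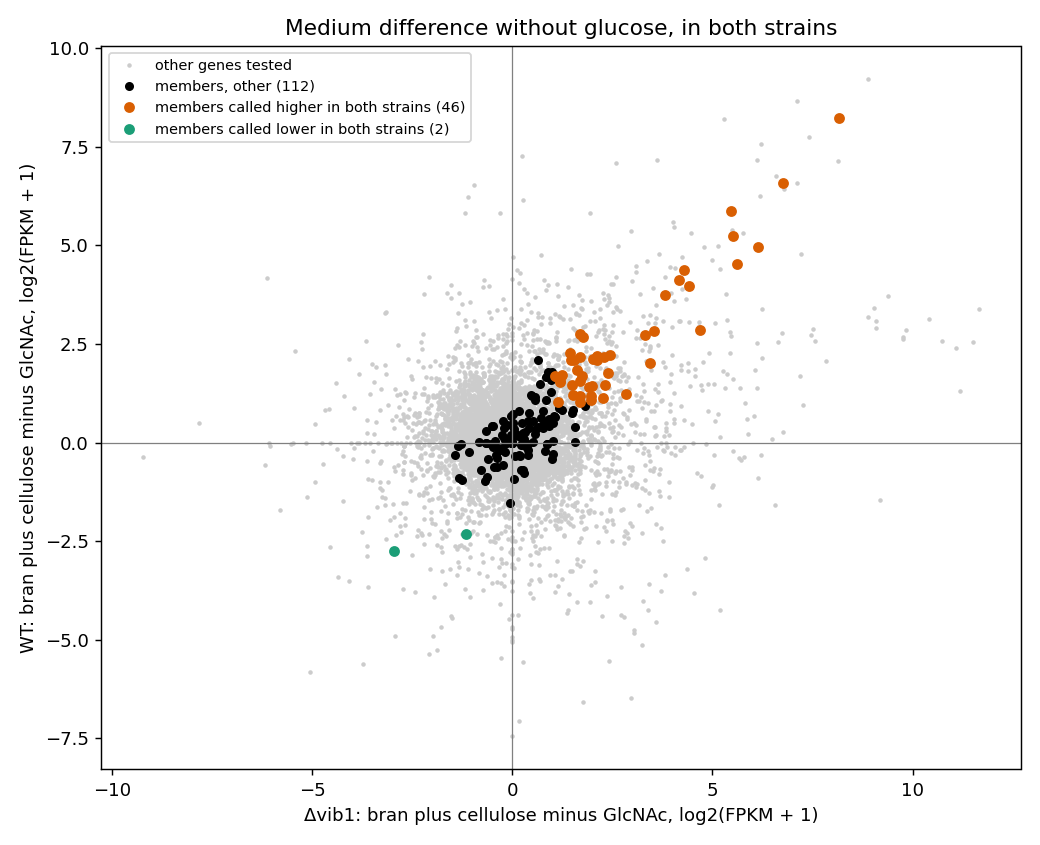
Each point is a gene, with the log2(FPKM + 1) difference of bran plus cellulose minus GlcNAc in Δvib1 on the horizontal axis and in wild type on the vertical axis; grey points are the other genes tested. The 46 members called higher in both strains (orange) reach 8.16 and 8.24, and the 2 called lower in both (green) lie at the lower left. The other 112 members tested (black) were called in 1 strain only or in neither.

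Some members carry neighbouring tag numbers, a property the rule did not use. Tag numbers are taken here only as an order of names, since no coordinates of this annotation were used. In 11 runs of consecutive numbers, 25 members stood next to another member: 9 runs of 2, 1 of 3 and 1 of 4. No background share was taken for this count, so it is not read as a grouping of the members. The 265 non-members with a tag number next to a member had a median strain difference of 0.33 log2 units in glucose, and 13.2% of them reached 1.5, while all gene models had a median of 0.15 and 5.95% reached 1.5. In the other media the medians of these neighbours were 0.16 in GlcNAc and 0.02 on bran plus cellulose, against 0.15 and 0 over all gene models.

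The longest run, PDE_04026 to PDE_04029, lay in a wider stretch of higher genes from PDE_04012 to PDE_04029, whose ends were set after the values were seen. The table lists 16 gene models under these 18 tag numbers, of which 9 were members. In glucose all 3 Δvib1 libraries lay above all 3 wild-type libraries for all 16 (40.4% of all gene models), with strain differences from 0.91 to 5.38 log2 units and a median of 2.83, and 13 of the 16 reached 1.5. The medians over the 16 were 0.13 in GlcNAc and 0.14 on bran plus cellulose. Since 9 of the 16 were chosen by these differences and the ends by the glucose values, the counts and medians of the stretch are a description only. Nothing is read from the count of 16 beside the share of all gene models.

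Within it, PDE_04016 had 34.7, 92.9 and 21.8 FPKM in Δvib1 in glucose, against 0.33, 0.07 and 0.26 FPKM in wild type. PDE_04026 had 65.4, 152 and 45.6 FPKM in Δvib1, against 9.34, 6.84 and 9.98 FPKM in wild type. PDE_04028 had 19.7, 52.4 and 14.0 FPKM in Δvib1, against 0.55, 0.36 and 0.26 FPKM in wild type. In each, replicate 2 of Δvib1 was the highest by more than 2 times and replicate 3 the lowest, while in wild type replicate 2 was the lowest for PDE_04016 and PDE_04026 and the middle one for PDE_04028. PDE_04029 likewise had 20.4, 39.5 and 12.5 FPKM in Δvib1, against 0.37, 0.44 and 0.43 FPKM in wild type, and PDE_04027 had 14.6, 27.3 and 8.94 FPKM, against 2.14, 1.95 and 2.06 FPKM in wild type.

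Replicate 2 was the highest deletion library in glucose for 15 of the 16 listed genes and all 9 members of the stretch, but for 35 of the 153 other members. The share over all gene models was not taken, and the ends of the stretch were set with these values seen. Without replicate 2 of Δvib1 in glucose 8 of the 9 members still had a strain difference of at least 1.5 there. The lowest, PDE_04012, had 1.18 log2 units. The 7 non-members of the stretch missed the rule in several ways: PDE_04020 and PDE_04023 were also higher in Δvib1 in GlcNAc, by 1.53 and 1.92 log2 units, PDE_04022 and PDE_04025 stayed under 10 FPKM in Δvib1 in glucose with differences of 2.99 and 2.66, and PDE_04014, PDE_04017 and PDE_04021 had differences of 0.91, 1.01 and 1.16 in glucose. PDE_04021, the most abundant gene of the stretch, averaged 621 FPKM in Δvib1 and 277 FPKM in wild type in glucose.

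**Figure D4:**
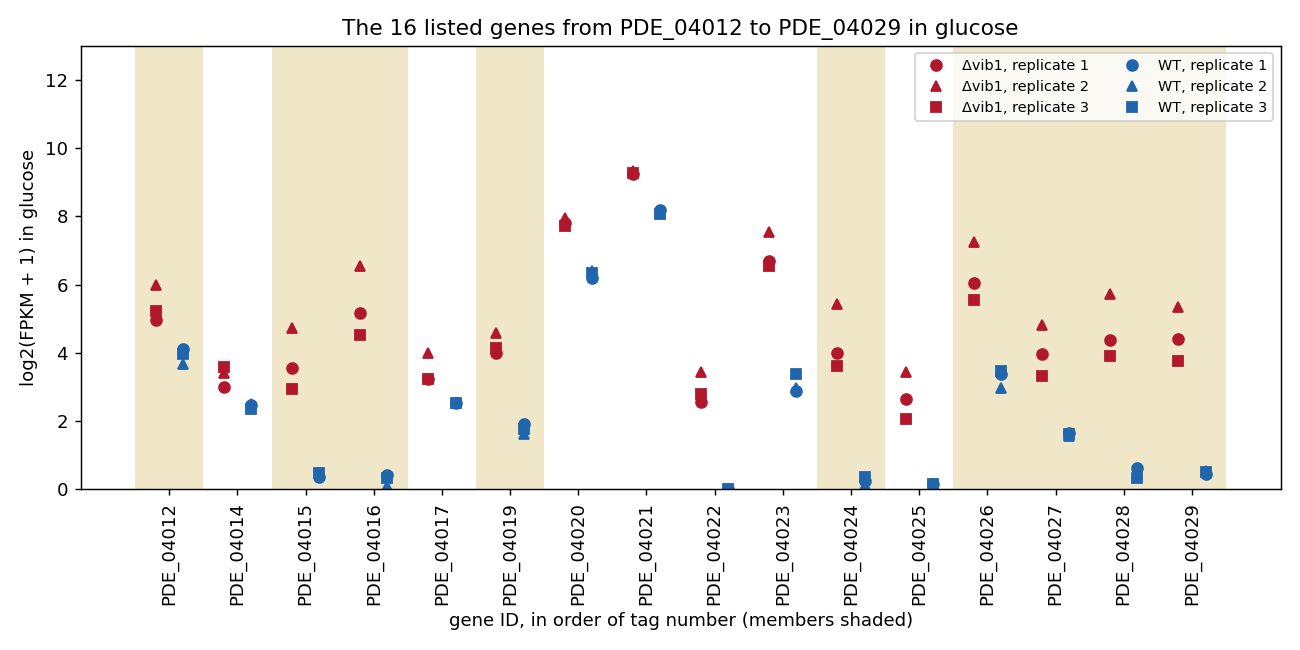
Points give log2(FPKM + 1) of the 16 listed genes from PDE_04012 to PDE_04029 in the 3 Δvib1 libraries (red, left) and 3 wild-type libraries (blue, right) in glucose, with a marker shape for each replicate and members shaded. The red points lie above the blue ones for every gene, and the triangle of Δvib1 replicate 2 is the highest red point for 15 of the 16.

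The next run, PDE_00484 to PDE_00486, had a different make-up. PDE_00484 had 35.9, 32.1 and 24.2 FPKM in Δvib1 in glucose, against 1.32, 2.12 and 2.14 FPKM in wild type. PDE_00485 had 236, 291 and 209 FPKM in Δvib1, against 56.6, 55.3 and 61.1 FPKM in wild type. PDE_00486 had 164, 164 and 135 FPKM in Δvib1, against 41.6, 53.4 and 57.7 FPKM in wild type. In GlcNAc the 3 genes averaged 0.28, 3.56 and 18.3 FPKM in Δvib1 and 0.29, 6.91 and 13.7 FPKM in wild type, and all 3 were among the 46 members called higher on bran plus cellulose than in GlcNAc in both strains. PDE_00482, at a nearby tag, is a member as well, and PDE_00483 between them had 22.0 FPKM in Δvib1 and 9.73 FPKM in wild type in glucose, a difference of 1.10 log2 units.

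Of the runs of 2, the first by tag number was PDE_00324 and PDE_00325. PDE_00324 had 159, 134.5 and 131 FPKM in Δvib1 in glucose, against 45.7, 48.6 and 51.4 FPKM in wild type. PDE_00325 had 332, 306 and 315 FPKM in Δvib1, against 101, 108 and 116 FPKM in wild type. Their ratios of means were close to each other, at 2.91 and 2.93. A larger shift stood in PDE_03499 and PDE_03500, a pair chosen after its values were seen: PDE_03499 had 309, 436 and 380 FPKM in Δvib1 in glucose, against 38.2, 46.1 and 41.8 FPKM in wild type, and PDE_03500 had 184, 241 and 223 FPKM in Δvib1, against 12.7, 17.8 and 12.7 FPKM in wild type. In both, the Δvib1 libraries exceeded every wild-type library by more than 6 times.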

How the data were processed

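The labels' protocols describe oligo(dT) capture, cDNA digestion with NlaIII, and short tags made with MmeI for Illumina sequencing. The authors deposited FPKM per gene model, per the file headers. Aligner, quantifier, genome build, gene lengths and the way from tags to FPKM, not given in the sources used here, could all shift levels. A tag library samples a transcript at few sites, so levels of different genes are less comparable than levels of 1 gene across libraries. Depth is unknown, so no counting interval is given.

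Members followed the stated rule on means of deposited FPKM. The members, lists and tests were chosen with earlier results of these data known. Tests used limma 3.58.1 in R 4.3.3 on log2(FPKM + 1), a scale that understates differences of low genes: 6 group means over 18 libraries, 12 residual degrees of freedom, eBayes with trend and robust, two-sided, Benjamini-Hochberg over 8455 gene models that reached 1 FPKM in 3 or more libraries (721 did not). Groups listed at 0 add no spread to this fit, which can make their p-values too small. The script was tested on simulated data. Groups came from sample titles.

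Named genes were the 5 members with the largest glucose difference, the 5 with the highest level, those at the limits of the rule, the called members with the largest and smallest medium difference in wild type (3 and 2), and the longest tag runs; others are marked. Alternatives were other pseudocounts, filters, scalings, limits, fits, a replicate block and left-out libraries. No sequences are shown because no table used here pairs these IDs with any.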

Additional observations from a re-analysis of the deposited data

Results flagged for a closer look

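In 4 members the medium difference ran in opposite directions in the strains, with no overlap between the libraries compared. The same pattern stood in 25.1% of all gene models. The limits of the rule bear on the strain differences in both media compared, so nothing is read from the members' count. The difference between the strains was not tested, because the rule had used the strain differences in both media. PDE_03141 had 46.9 FPKM on bran plus cellulose and 41.3 FPKM in GlcNAc in Δvib1, but 37.5 and 47.2 FPKM in wild type, a wild-type difference of −0.32 log2 units. In the other 3 Δvib1 was lower on bran plus cellulose and wild type higher. PDE_04165 had 21.5 FPKM on bran plus cellulose and 30.9 FPKM in GlcNAc in Δvib1 (−0.51 log2 units), against 22.8 and 16.7 FPKM in wild type. PDE_04815 had 61.1 and 96.9 FPKM in Δvib1 (−0.66 log2 units), against 73.9 and 59.7 FPKM in wild type. PDE_05931 had 7.89 and 8.81 FPKM in Δvib1 (−0.14 log2 units), against 7.43 and 5.24 FPKM in wild type.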

How the results depend on the processing

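The number of members was 162 and depends by construction on the limits: 381 genes met a glucose limit of 1, 93 a limit of 2, and 77 a limit of 0.5 in the other media. It ranged from 151 to 184 when a replicate number was left out and from 155 to 176 when 1 library was, and was 146 and 168 with pseudocounts of 0.1 and 5 (136 and 120 of them members), 131 after median-ratio rescaling (113 members) and 187 after rescaling to the same total (146 members). Taking the median of 3 libraries, chosen after seeing the data, gave 167 (143 members). With a pseudocount of 5, 1 member in place of 4 was higher in wild type in both other media than in glucose. Members called higher on bran plus cellulose than in GlcNAc in wild type fell to 36 with that pseudocount, and members called lower in Δvib1 to 5; those called lower in wild type were 5 with a pseudocount of 0.1 and 4 after median-ratio rescaling. The causes were not tested. Rescaling to the same total moved the median gene in wild type to 0.16 log2 units. Same-numbered libraries of the media compared correlated at −0.03 to 0.18, and differently numbered ones at −0.21 to 0.13. These values cannot settle whether the numbers pair the libraries. The replicate block left 58 members higher and 8 lower in Δvib1 and 58 and 2 in wild type. The call of PDE_08138 in Δvib1 was also lost with pseudocounts of 0.1 and 5 and after median-ratio rescaling (adjusted p of 0.134, 0.00399 and 0.0326 with limma, the last 2 with differences smaller than 1 log2 unit). Unknown depth leaves low values and zeros without an error of their own.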
